A study of Mus musculus with 28 samples.

Results

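The mouse prolactin family cluster is a run of hormone genes on chromosome 13. It was taken here as the 1.3 Mb from chr13:27000001-28300000 of build mm9, or 6500 of the 13274547 bins of 200 bp into which the deposited segmentations divide the genome. The region was selected on measured values of these files: its first 1 Mb had the largest gain of chromatin state U2 from NT to GS in wild-type cells, the opposite change in knockout cells and 4 listed SIRT7 peaks in GS. All values of U1, U2 and SIRT7 peaks below are therefore a description of a chosen region and carry no test.

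The study applied ChIP-seq to fibroblasts of mouse embryos (strain 129s2, day 14.5) at passages 3 to 4. Wild-type (WT) cells were compared with SirT7-/- cells (KO), each labelled NT or GS, abbreviations that the labels do not expand; the series title names glucose starvation. SIRT7 is a nuclear NAD-dependent deacylase, macroH2A1.1 a variant of histone H2A, and H3K27me3 the histone mark of Polycomb repressive complex 2. Each segmentation, named by genotype and treatment (WT-NT and so on), assigns every bin to 1 of 4 states, U1 to U4, and is tied by the labels to 2 H3K27me3 and 2 macroH2A1 libraries; each SIRT7 peak list (NT and GS, WT cells only) is tied to 2 SIRT7 libraries. The sources used here give neither the meaning of the states nor the read depth, each file stands for pooled replicates, and no value below has a replicate error. They also do not say whether the states were defined jointly for the 4 segmentations. The comparisons below take U2 as the same state in all 4, which could not be checked. Whether the cultures came from separate embryos is not given in the labels either. No RNA was measured, so nothing below concerns the expression of the genes, and the identity of the cells could not be checked against marker genes.

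Prolactin is a peptide hormone of the anterior pituitary that acts on the mammary gland through a cytokine receptor. In rodents its gene has multiplied into a cluster whose other members are secreted mainly by the placenta and the decidua of pregnancy. Silent chromatin is known to carry H3K27me3, and macroH2A1 is often found there too.

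The cluster holds 23 prolactin family genes from Prl to Prl5a1 in the RefSeq annotation of GRCm38.p6, and all 23 protein-coding genes of that stretch belong to the family. That annotation is of another build than the segmentations, so genes could be ordered but not placed on the bins, and no state is given for a single gene. Prl, the gene of pituitary prolactin itself, is the first in that order. Prl3d1 (second) encodes placental lactogen I of trophoblast giant cells, and Prl8a2 (ninth) the decidual prolactin-related protein. Prl7a1, number 16 in the order, Prl2a1, number 20, and Prl5a1, number 23, encode further placental prolactin-like proteins. Prl4a1, number 22, encodes a prolactin-like protein known to act on natural killer cells of the uterus. The protein-coding neighbour before Prl is Hdgfl1, which is not of the family.

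Promoters of the family have few CpG dinucleotides, whereas a high count of them marks many known Polycomb target promoters. Of the 23 genes, 20 were matched to a RefSeq promoter, among them 6 of the 7 named above (all but Prl8a2). In the 250 bases before the start, the family promoters held 0 to 5 CG (median 2), against a median of 6 over all 32851 promoters in the table. The number with at most 2 CG was 15 of 20, and 29.0% of all promoters were that low. Their GC content ran from 34 to 43.2% (median 38.8%), against a median of 52.4% over all promoters. The letters TATA, which read the same on both strands, stood in the last 40 of these bases in 15 of 20 family promoters and in 7.63% of all promoters. Shown here are the 250 bases before the start of Prl and of the named genes with the highest and the lowest identity to it in a global alignment, Prl3d1 (52.1%) and Prl7a1 (48.9%), 5′ to 3′ on the strand of the gene, from RefSeq (GRCm38.p6), with each CG, and runs of TATA within the last 40 bases, in capitals.
Prl: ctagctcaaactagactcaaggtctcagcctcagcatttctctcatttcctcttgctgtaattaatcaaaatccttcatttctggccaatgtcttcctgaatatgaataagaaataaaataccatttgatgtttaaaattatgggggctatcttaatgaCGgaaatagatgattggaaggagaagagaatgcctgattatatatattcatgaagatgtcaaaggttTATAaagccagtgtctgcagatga
Prl3d1: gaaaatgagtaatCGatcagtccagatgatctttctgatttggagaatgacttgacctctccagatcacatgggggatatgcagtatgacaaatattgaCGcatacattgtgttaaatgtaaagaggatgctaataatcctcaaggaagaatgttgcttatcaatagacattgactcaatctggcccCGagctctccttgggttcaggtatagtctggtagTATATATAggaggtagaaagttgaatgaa
Prl7a1: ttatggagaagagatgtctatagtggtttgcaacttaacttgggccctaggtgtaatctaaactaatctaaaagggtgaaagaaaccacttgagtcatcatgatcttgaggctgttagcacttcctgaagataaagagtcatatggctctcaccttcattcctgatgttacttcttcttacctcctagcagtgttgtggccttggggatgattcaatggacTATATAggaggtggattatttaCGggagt
The pituitary gene has 1 CG and the letters TATAaag near its start, while the 2 placental genes share the letters TATAggaggt at that place. These letters are a description of the promoters and not evidence of bound factors. The identities to Prl, from 48.9 to 52.1%, span a narrow range. No baseline from unrelated promoters was computed, so they are not evidence of graded likeness to Prl. The sequences under the SIRT7 peaks were not analysed here.

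Every bin of the region was U1 or U2. In WT cells U2 covered 35.8% of the bins in NT and 56.0% in GS, a difference of 20.1 percentage points and a ratio of 1.56. In KO cells U2 went the other way, from 42.0% in NT to 23.0% in GS, a difference of -19.0 points. KO cells thus had more U2 than WT cells in NT, by 6.15 points, and less in GS, by -32.95 points, when WT cells had 2.43 times as much. The order of the segmentations from most to least U2 was WT-GS, KO-NT, WT-NT, KO-GS. The rest of chromosome 13, taken as a whole, showed no such net differences between treatments, although sequence next to the region did, as given below. In WT its U2 share as a whole was 27.8% in NT and 28.28% in GS, a change of 0.433 points. In KO it was 24.20% in NT and 24.23% in GS, a change of 0.0301.

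U3 and U4 were absent from all 6500 bins in each of the 4 segmentations, whereas on the rest of chromosome 13 U3 covered 6.89 to 7.36% and U4 1.06 to 1.93%. The 1.3 Mb just before the region, which were richer in U2, came close to this, with 0 U3 bins and 1 to 3 U4 bins in each segmentation. The genome was cut into windows of the region's length in step with the region, leaving out the first 3 Mb of each chromosome. Of the 1962 other windows on chromosomes 1 to 19 and X, 120 had no U3 or U4 bin. Of the same 1962, 597 had at least 20% U2 in all 4 segmentations. Among these 597, 1 (0.168%) had no U3 or U4 bin, from 4900001 to 6200000 on chromosome 13. The minimum of 20% was set after the region's values were seen.

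**Figure D1:**
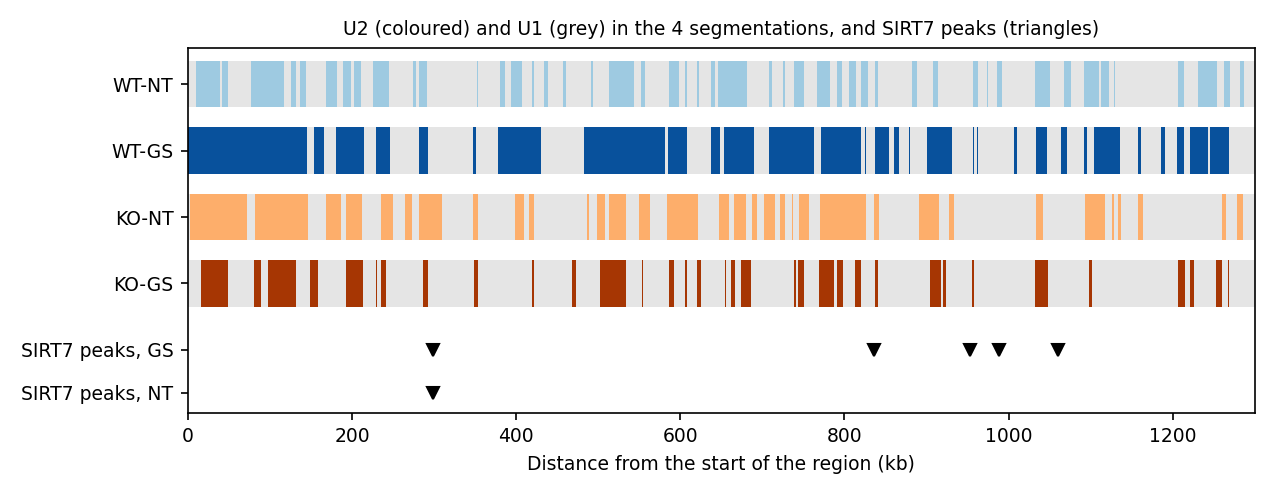
The 4 upper rows show U2 (coloured) and U1 (grey) along the 1.3 Mb region in each segmentation, and the triangles mark SIRT7 peaks in the GS and NT lists; the x axis is the distance in kb from the start of the region. The longest U2 block inside the region is 145.6 kb in WT-GS, where it is cut at the region's start, and 34.4 kb in KO-GS. Each GS peak stands in a U1 stretch of WT-GS, where U1 covers 44.0% of the region.

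Bin by bin, 1790 bins (27.5% of the region, 358 kb) went from U1 to U2 in WT and 482 (7.42%) from U2 to U1. Over the whole series, 2.94% of bins made the former change in WT and 2.46% the latter, so both were more frequent in the region, and gains outnumbered losses 3.71 to 1 against 1.20 to 1 over the whole series. In KO, 1618 bins (24.9%) went from U2 to U1 and 384 (5.91%) from U1 to U2, against 2.94 and 3.27% over the whole series. Of the bins that were U1 in WT-NT, 42.9% had become U2 in WT-GS (4.17% over the whole series), and of those that were U2 in KO-NT, 59.3% had become U1 in KO-GS (17.9% over the whole series). Between genotypes in GS, 2290 bins (35.2%) were U2 in WT and U1 in KO and 148 (2.28%) the reverse, against 4.23 and 1.61% over the whole series. In NT the corresponding counts were 819 bins (12.6%) and 1219 (18.8%), against 4.48 and 1.85% over the whole series. Since the rule used these contrasts, the excess over the whole series describes the choice of the region.

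The bins gained in WT and those lost in KO overlapped in part. They had 625 bins (125 kb, 9.62% of the region) in common, which is 34.9% of the WT gains and 38.6% of the KO losses. Over the whole series 0.545% of bins made both changes, or 18.5% of the gains and 18.5% of the losses. The reverse combination, lost in WT and gained in KO, covered 27 bins, or 0.415% of the region, and 0.413% of the whole series. Of the bins gained in WT, 46.8% were already U2 in KO-NT (32.6% over the whole series). Among all bins, 42.0% of the region and 16.4% of the whole series were U2 in KO-NT. KO losses covered 24.9% of the region and 2.94% of the whole series. Set against these shares of all bins, both overlaps stood out less in the region than over the whole series. The number of bins that were U2 in WT-GS alone was 785 (12.1% of the region and 1.38% of the whole series).

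**Figure D2:**
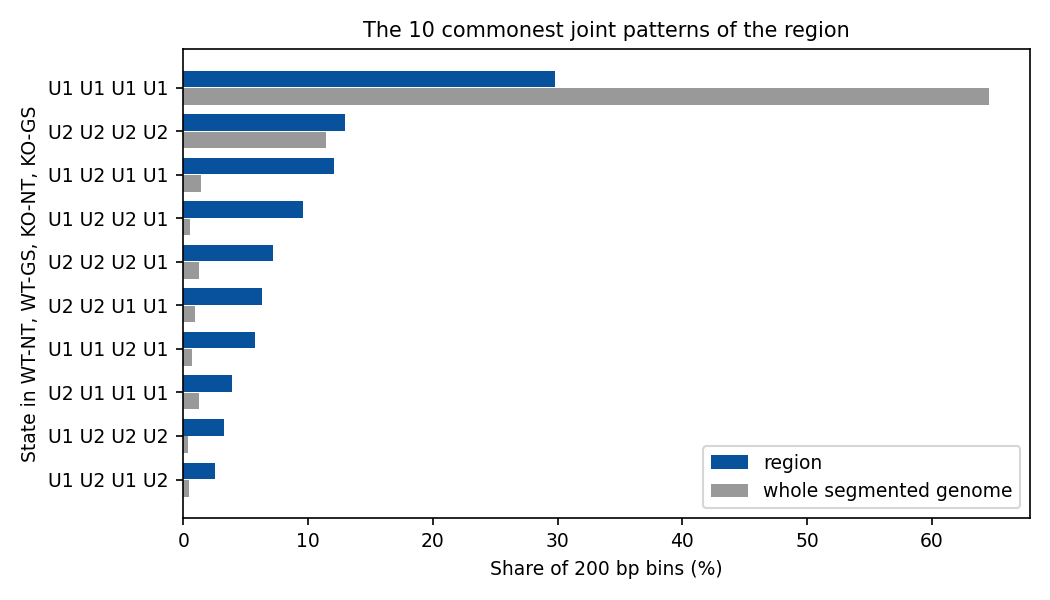
Bars give the share of 200 bp bins with each of the 10 commonest combinations of states (read as both WT segmentations, NT before GS, then both KO ones), for the region (blue) and the whole segmented genome (grey). Bins U1 in all 4 make up 29.8% of the region and 64.6% of the genome, bins U2 in all 4 make up 12.9 and 11.4%, and each of the other 8 combinations shown takes a larger share of the region than of the genome.

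Of the 1496 U2 bins of KO-GS, WT-GS had 90.1% in U2 and KO-NT had 74.3%, near the 85.9 and 74.9% of the whole series. Of the 2730 U2 bins of KO-NT, WT-GS had 78.6% in U2 and WT-NT had 55.3%, against 85.9 and 85.1% over the whole series. Of the 2330 U2 bins of WT-NT, 79.3% remained U2 in WT-GS, close to the 82.0% of the whole series. Of the U2 bins of WT-GS, 50.8% had been U2 in WT-NT, against 80.9% over the whole series. A set of 840 bins (168 kb) was U2 in all 4 segmentations.

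U2 segments became fewer and longer from NT to GS in WT, and shorter in KO. WT-NT had 48 U2 segments with a median of 6.50 kb and a longest of 40.2 kb (27076601 to 27116800). WT-GS had 32 with a median of 11.8 kb and a longest of 145.6 kb, counted from the first base of the region to 27145600. Segments were cut at the edges of the region, so that 145.6 kb block may be longer. In KO-NT there were 36 with a median of 9.10 kb and a longest of 69.0 kb (27002801 to 27071800), and in KO-GS 37 with a median of 5.40 kb and a longest of 34.4 kb (27097001 to 27131400). Segments of 20 kb or more held 38.2% of the WT-NT and 82.6% of the WT-GS U2 sequence. Their share in KO cells was 59.3% in NT and 39.6% in GS. All 4 medians lay above those of the whole series, which were 2.60 and 2.80 kb in WT and 3.20 and 2.60 kb in KO (NT and GS in turn), where U3 and U4 also interrupt U2.

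In WT 51.8% of the gained sequence closed gaps between existing U2 segments. Of the 51 runs of bins that went from U1 to U2, 20 joined a pair of U2 segments of WT-NT and held that share. A further 23 runs extended a segment on 1 side (38.2%), and 8 lay apart from any (10%). A run that crossed the start of the region was counted with its part inside. Over the whole series the shares of gained sequence were 17.6% for joining, 44.0% for extending and 38.4% for separate runs. There, unlike in the region, gains could also border U3 or U4, which were not counted as U2. U2 also covered 35.8% of the region in WT-NT against 19.6% of the whole series, so the shares are not strictly alike. The longest gained run of the region was 28.4 kb, from 27048201 to 27076600, and joined a pair of segments. Of the 48 U2 segments of WT-NT, 27 (56.3%) were still wholly U2 in WT-GS and 8 (16.7%) had no U2 bin left, against 40.2 and 24.4% over the whole series. In KO, 2 of the 36 segments of KO-NT (5.56%) were still wholly U2 in KO-GS, 17 were kept in part and 17 (47.2%) had no U2 bin left, against 33.8% kept whole and 23.6% without any U2 left over the whole series.

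No border between U1 and U2 in the region stood at the same place in all 4 segmentations, within 1 bin. WT-NT had 96 such borders, WT-GS 63, KO-NT 72 and KO-GS 74. Over the whole series, 2.63 to 2.84% of borders between U1 and U2 were shared by all 4. Of the WT-NT borders in the region 6 (6.25%) recurred in WT-GS, against 14.9% over the whole series, and of the KO-NT borders 3 (4.17%) recurred in KO-GS, against 10.2%. How much of this is change between conditions and how much is imprecision of the segmentations cannot be told apart without replicates.

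The opposite changes in WT and KO ran through most of the region. Of its 13 windows of 100 kb, U2 was higher in GS in WT in 11 (31.9% of 25778 windows on chromosomes 1 to 19 and X), lower in GS in KO in 11 (26.7% of all windows), and both in 10 (12.7%). Those percentages include windows whose U2 share did not change. Over all 25778 windows, 8223 were higher and 8372 lower in GS in WT, and 9192 were higher and 6895 lower in KO. KO had more U2 than WT in NT in 11 of the 13 windows (17.1% of all windows) and less than WT in GS in all 13 (42.7% of all windows). In WT the largest gain was in the window from 27500001 to 27600000, from 47.6 to 96.2%, and the only falls were from 44.0 to 42.4% (from 27200001) and from 34.4 to 28% (from 28000001). In KO the largest loss was in the first window, from 87.6 to 44.2%, where WT went from 59.0 to 100% U2. The largest gain in KO was in the last window, from 12.8 to 20%.

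The first 1 Mb and the last 300 kb differed in how the genotypes stood in NT. In the first 1 Mb KO-NT had more U2 than WT-NT (48.8 against 36.7%), and in the last 300 kb it had less (19.3 against 32.9%). The change with treatment was also smaller in the last 300 kb, from 32.9 to 40.8% in WT and from 19.3 to 13.5% in KO, than in the first 1 Mb, from 36.7 to 60.5% in WT and from 48.8 to 25.9% in KO. The rule itself had picked the first 1 Mb as the extreme. At the edges of the region, the 100 kb just inside its start went from 59.0 to 100% U2 in WT and from 87.6 to 44.2% in KO, and the 100 kb just outside from 24.6 to 34.8% and from 27 to 50.8%. The 100 kb just inside its end went from 42.6 to 54.2% in WT and from 12.8 to 20% in KO, and the 100 kb just outside from 54.8 to 85.6% and from 69.0 to 70.6%.

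**Figure D3:**
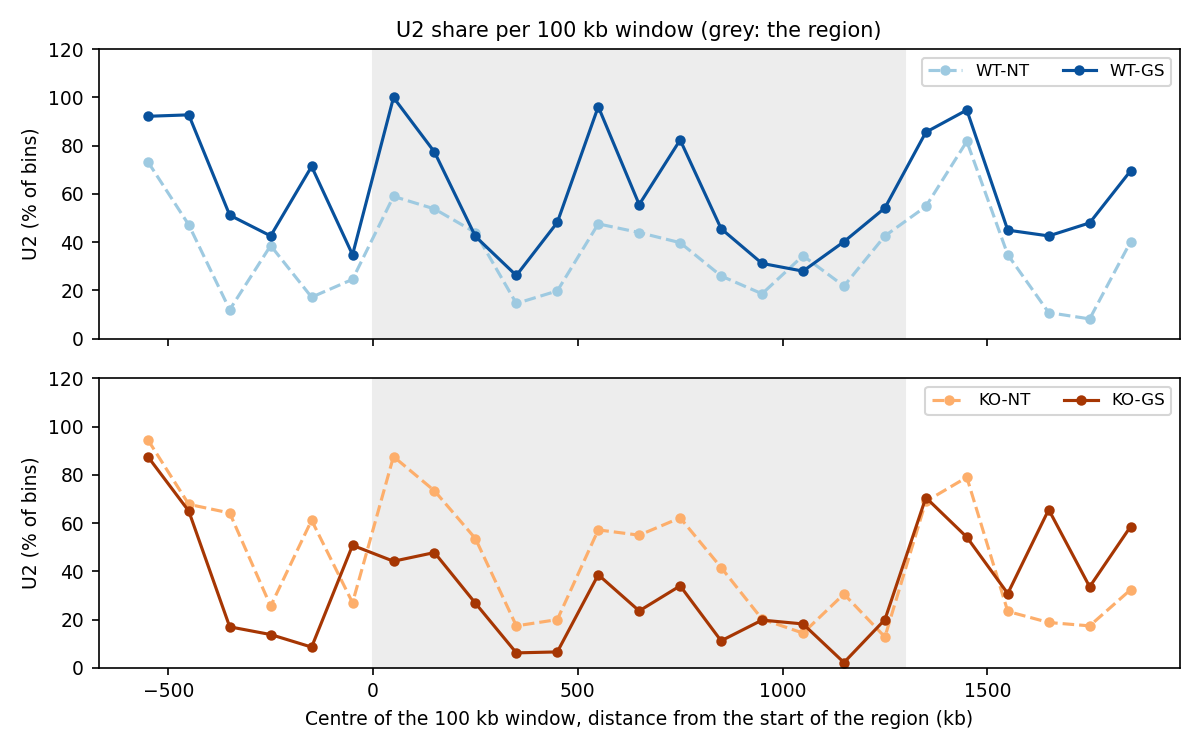
Points give the percentage of bins in U2 per 100 kb window in WT (upper panel) and KO (lower panel), NT dashed and GS solid, against the distance in kb from the start of the region, which is shaded. The GS line lies above the NT line in WT in 11 of the 13 shaded windows and below it in KO in 11, and in the 600 kb before the region it lies above in WT in 6 of 6 and below in KO in 5 of 6.

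The pattern was not confined to the cluster. In the 1.3 Mb just before it, from 25700001 to 27000000, U2 went from 52.8 to 73.3% in WT (20.5 points) and from 70.3 to 53.8% in KO (-16.5 points). That window had the largest WT gain of all 1963 windows of this length and the cluster the next largest, and by KO loss the cluster had rank 3. In the 1.3 Mb after the cluster both genotypes gained, WT by 7.55 points and KO by 7.11. WT gained in all 12 windows of 100 kb within 600 kb of the cluster on either side. A WT gain and a KO loss of at least 10 points each were found in 6 windows of 1.3 Mb (0.306%). Besides the cluster and the window before it, these started at 15300001 and 37400001 on chromosome 10, at 95900001 on chromosome 12 and at 84200001 on chromosome 9.

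**Figure D4:**
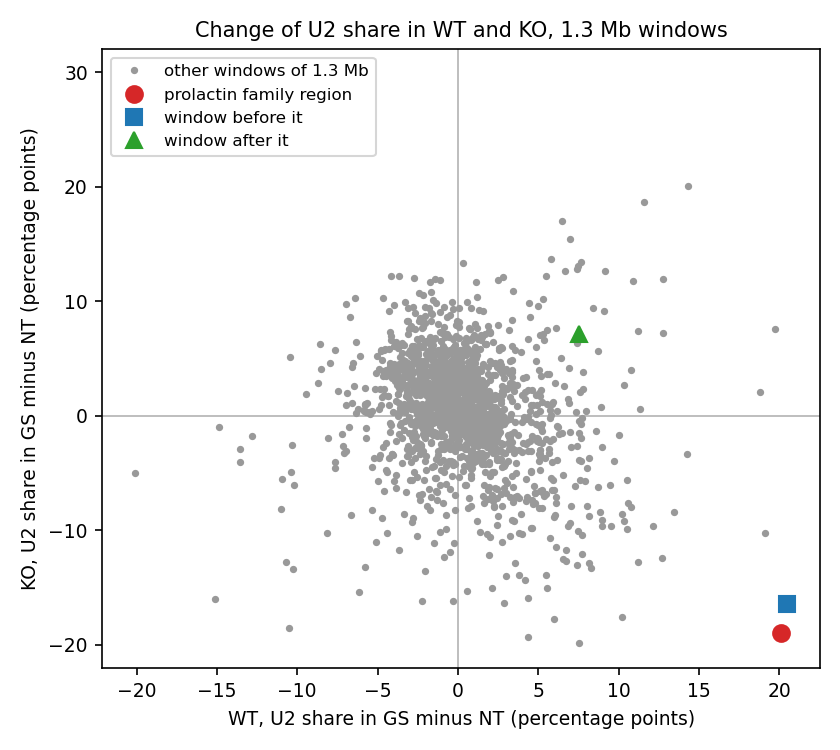
Each point is 1 window of 1.3 Mb on chromosomes 1 to 19 and X, with the change of its U2 share from NT to GS in percentage points in WT (x axis) and KO (y axis). The region (red circle, 20.1 and -19.0) and the window before it (blue square, 20.5 and -16.5) lie apart at the lower right, and the window after it (green triangle) lies at 7.55 and 7.11.

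SIRT7 peaks in the region numbered 5 in the GS list and 1 in the NT list, with 4 of the 5 and the NT peak in the first 1 Mb. The 5 GS peaks make 3.85 per Mb, against 1.19 per Mb on the rest of chromosome 13, and 92 of the 1962 other windows of this length held as many or more. The 1 NT peak makes 0.769 per Mb, against 0.0084 per Mb on the rest of chromosome 13 and 0.0339 per Mb over the whole NT list. Chromosome 13 held 2 NT peaks in all, so the NT rate of the region rests on 1 peak. The peaks are described with the score the authors deposited, and no source used here says how it was computed. The first lay from 27297797 to 27298181 with a score of 845, rank 148 of the 2671 GS peaks, and overlapped the NT peak from 27297902 to 27298164, which had a score of 674 and rank 33 of 90. The other 4 were found in GS alone. With 90 peaks in the NT list and 2671 in the GS list, few GS peaks anywhere could overlap an NT peak. These 4 lay from 27834661 to 27836371 (score 547), from 27950592 to 27954547 (745), from 27986681 to 27989349 (721) and from 28059434 to 28060005 (825). Neighbours among these 4 stood 32.1 to 114 kb apart, and the first peak stood 536 kb away from them. The nearest GS peak outside, from 28322104 to 28323242 with a score of 552, was U2 in WT-GS and U1 in the other 3 segmentations.

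The segmentation matched to the GS list is WT-GS, where all 5 GS peaks lay in U1, 1.03 to 16.7 kb from U2. In WT-NT and KO-NT 4 of 5 lay in U1, and in KO-GS all 5. The 2 exceptions were different peaks. The peak at 27986681 was wholly U2 in WT-NT, in a segment of 5.20 kb, and wholly U1 in WT-GS, in a segment of 43.8 kb. The peak at 27297797, shared with NT, was wholly U2 in KO-NT and wholly U1 in the other 3. None of the 5 peaks lay in sequence that WT cells gained as U2, which made up 27.5% of the region. The peak just outside the region, at 28322104, was wholly U1 in WT-NT and wholly U2 in WT-GS.

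Sequence within 10 kb of the GS peaks showed no net gain of U2 in WT. Within 10 kb of a GS peak (100 kb in all) U2 went from 23.8 to 20.2% in WT, and in the rest of the region from 36.9 to 59.0%. Within 25 kb the change was from 28.04 to 28.6% in WT, and within 50 kb from 26.1 to 33.1%. In KO the near sequence also lost U2, from 27 to 10.6% within 10 kb and from 43.3 to 24.1% beyond. The KO difference was -12.4 points within 25 kb against -20.4 beyond, and -15.1 points within 50 kb against -20.7 beyond. These values rest on 5 peaks, and whether nearness to a peak or position along the region goes with the difference was not tested. The window of 1.3 Mb before the cluster, with a like gain in WT and loss in KO, held 0 GS peaks, and the window after it, where both genotypes gained, held 4.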

How the data were processed

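The files used were 2 SIRT7 peak lists and 4 chromatin segmentations that the authors deposited. Tools listed by the submitters' processing notes, with no role, are MACS 1.4.2 (a peak caller), deepTools 2.4.2, Bowtie, SAMtools 0.1.19, Trimmomatic 0.36 and FastQC 0.11.3, and the builds listed are mm9 and hg19. No source used here names the segmentation tool. The authors deposited 1 score per peak, a whole number of at most 1000, and 1 state name per segment, with replicates pooled per the labels' descriptions. Read totals are not given, so the depth behind each call is unknown.

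Segments were expanded into 200 bp bins, and shares, transitions, segments and borders were counted in Python 3.11.15 with numpy 2.4.6 and pandas 2.3.3. Peaks overlapping the region by 1 bp were kept and given the state covering most of their bases. Promoters were aligned with Biopython 1.88 (match 1, mismatch -1, gap opening -2, gap extension -0.5). Counting was checked on simulated bins. Named were the 7 genes given as members, all SIRT7 peaks of the region, the 100 kb windows with the largest changes and the longest segments. The region, the genes and the rules were chosen with earlier results of these data known. Alternatives were bins of 1 kb, segments under 1 kb joined to the longer neighbour, other edges and the upper 50% of peaks by score. A further alternative took U2, U3 and U4 together. Input libraries and signal tracks were not used here.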

Additional observations from a re-analysis of the deposited data

Results flagged for a closer look

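The change of the U2 share from NT to GS went opposite ways in the 2 genotypes, 20.1 percentage points in WT and -19.0 in KO, which differ by 39.1 points. The difference was not tested, since each value comes from 1 segmentation that pools 2 replicates per ChIP target, and the region had been chosen for this contrast.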

How the results depend on the processing

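Of 30 values under alternative processing of 7 results, 24 stayed within the interval of the reported value or, for counts, within 1.5 times it, 6 moved and 0 reversed. Counts could not reverse in sign, and the regions with other edges overlap the main one. The interval was a Newcombe 95% interval that takes bins as independent, which neighbouring bins are not, so it is narrow. All 6 moves came from other edges of the region. With the first 1 Mb only, GS minus NT was 23.8 points in WT and -22.9 in KO, and KO minus WT was 12.1 points in NT and -34.6 in GS. With the region widened by 100 kb on each side, GS minus NT was -14.8 points in KO and KO minus WT was -28.5 in GS. Bins of 1 kb and joined short segments moved none of the 4 differences. Taking U2, U3 and U4 together could not change them, because the region held no U3 or U4 bin. Those 4 values are among the 24 that stayed, and their outcome was fixed in advance. The bins gained in WT and lost in KO numbered 549 to 650, and GS peaks 4 to 6, under the alternatives. The 4 GS peaks of the first 1 Mb were part of the rule that chose the region. No paired analysis was possible because each deposited file pools the replicates. Leaving out a replicate was not possible for the same reason. Unknown depth limits all comparisons of U2 extent between segmentations.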
